A study of Mus musculus with 16 samples.

Results

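The coagulation and fibrinolysis genes of mouse liver are described here across 2 genotypes, with and without lipopolysaccharide (LPS). They are 36 genes of the clotting cascade, of fibrin, of the natural anticoagulants, of fibrin breakdown and of platelet adhesion, chosen by name from the gene symbols of the array. Of the 36, 34 had a probe set of their own and were tested among 15908 genes. The probe set of Klkb1 (plasma prekallikrein) is shared with another gene in the annotation and was not used, and Cpb2 had no probe set under its symbol in the annotation used here. Each gene was represented by its probe set of highest mean over the 16 arrays.

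RNA of whole liver was hybridised to 16 Affymetrix whole-transcript arrays in 4 groups of 4, all from male mice. Wild-type (WT) C57Bl6/J mice were compared with homozygous S534A mice, a germline knock-in in which a serine codon in exon 10 of the p65 gene was changed to alanine, so that every cell of these mice carries the change. p65 is a subunit of NF-kB. The knock-in line came from 2 embryonic stem cell clones, passed through a cross to FLPe mice that removed the neo cassette, and was backcrossed to C57Bl6/J before interbreeding. In each genotype 1 group was untreated and 1 was given 1 mg per kg LPS, a bacterial endotoxin. The labels name no age, time after LPS, route or vehicle. No label says that the 4 samples of a group are 4 animals, and the p-values below therefore cover the spread between these samples alone.

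Clotting is a cascade in which vitamin K-dependent and other proteases, most of them made by hepatocytes, activate each other until thrombin cuts fibrinogen into fibrin. Antithrombin, the protein C system and tissue factor pathway inhibitor hold the cascade back, and plasmin, made from plasminogen, dissolves fibrin. Fibrinogen is a classical acute-phase protein, and factor VIII and von Willebrand factor come mainly from endothelial cells.

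The 3 fibrinogen genes, Fga, Fgb and Fgg, code for the chains of 1 protein and all rose after LPS, and the 250 bases before the annotated start of each are printed for that reason. They come from RefSeq with build GRCm38.p6 and are written from 5′ to 3′ on the strand of the gene. Capitals mark matches to TTCNNNGAA, the core bound by STAT proteins, or to CTGGGAA, a motif described in acute-phase promoters, on either strand.
Fga (chr3:83025903-83026152, plus strand): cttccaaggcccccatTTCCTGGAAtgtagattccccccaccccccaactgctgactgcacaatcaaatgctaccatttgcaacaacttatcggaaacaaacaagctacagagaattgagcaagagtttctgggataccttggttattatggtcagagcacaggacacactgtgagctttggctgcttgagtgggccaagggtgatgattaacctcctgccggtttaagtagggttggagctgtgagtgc
Fgb (chr3:83049864-83050113, minus strand): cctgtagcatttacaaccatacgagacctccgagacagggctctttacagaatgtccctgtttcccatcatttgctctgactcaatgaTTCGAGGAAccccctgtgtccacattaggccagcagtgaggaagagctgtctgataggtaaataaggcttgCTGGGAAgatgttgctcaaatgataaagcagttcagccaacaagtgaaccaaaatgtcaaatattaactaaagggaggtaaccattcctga
Fgg (chr3:83007474-83007723, plus strand): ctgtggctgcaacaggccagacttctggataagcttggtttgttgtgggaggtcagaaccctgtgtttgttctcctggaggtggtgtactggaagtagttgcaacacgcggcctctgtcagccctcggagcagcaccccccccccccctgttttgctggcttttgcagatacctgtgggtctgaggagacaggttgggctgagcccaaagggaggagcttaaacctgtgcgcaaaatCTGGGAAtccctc

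Counted back from the start, TTCNNNGAA lay at bases 234 to 226 in Fga and 162 to 154 in Fgb. CTGGGAA lay at bases 91 to 85 in Fgb and 13 to 7 in Fgg. These are matches of letters and not measured binding. Over 32851 mouse promoters of the same length, searched on both strands, TTCNNNGAA was in 7.02% and CTGGGAA in 9.10%. RefSeq's table had a promoter for 25 of the 34 genes tested, and of these 4 held the former (Fga, Fgb, Pros1 and F9) and 5 the latter (Fgb, Fgg, Tfpi, Adamts13 and F9); the matches of both motifs in F9 overlap each other. TTGCNNAA, the core bound by C/EBP proteins, was in 7 of the 25 (Fga, Fgb, Procr, Plaur, F11, Hrg and F9) and in 9.56% of all promoters. GGNNTTTCC, part of the kappa-B motif bound by NF-kB, was in 1 of the 25 (F3) and in 4.93% of all. Fgb and F9 each held 3 of these motifs. In WT the level after LPS differed from untreated by 0.30 ± 0.06 for Fgb and 0.02 ± 0.09 for F9. The part of these motifs in the changes was not tested.

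After LPS in WT, 9 of the 34 genes were higher and 12 lower, with 13 not past the threshold (limma, adjusted p under 0.05). In S534A, 9 were higher, 11 lower and 14 not past it. Plau is counted among the lower genes here and below, although it passed the expression filter only through the untreated arrays. Without Plau, 11 of 33 genes were lower in WT and 10 of 33 in S534A. Fibrinogen chains, protein Z-dependent protease inhibitor, the endothelial protein C receptor and the urokinase receptor were among those that rose, and factor VIII, tissue factor pathway inhibitor, factor VII and the thrombin receptor among those that fell. Most of the plasma proteases, antithrombin and plasminogen did not pass the threshold in either genotype.

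Of all 15908 genes, 14.9% were higher and 29.9% lower after LPS in WT, against 26.5% and 35.3% of the 34. In S534A the shares of all genes were 14.2% higher and 31.2% lower, against 26.5% and 32.4% of the 34. The share of lower genes was thus near the background in both genotypes. The median change of the 34 was −0.02 in WT and −0.07 in S534A on the log2 scale, beside −0.05 and −0.03 over all genes. Their median absolute change was 0.31 and 0.26, beside 0.21 and 0.22 over all genes. Median centring of each array moved the median change of all genes in WT to −0.16 and the higher share of all called genes from 33.3% to 22.1% (S534A, −0.13, and from 31.3% to 21.5%). With that centring, 15 of the 34 were lower in each genotype and 9 (WT) or 8 (S534A) higher, and no called gene changed direction.

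By pattern, 8 genes were higher in both genotypes (Fga, Fgb, Fgg, Fgl1, Serpina10, Procr, Thbd and Plaur). Another 10 were lower in both (F7, F8, F13b, Serpind1, Proc, Proz, Tfpi, Plau, Vwf and F2r). Of these, Plau entered the test only through the untreated groups, and its place here is a description. F3, Pros1 and Adamts13 passed in WT, F5 and F13a1 in S534A, and 11 passed in neither.

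**Figure D1:**
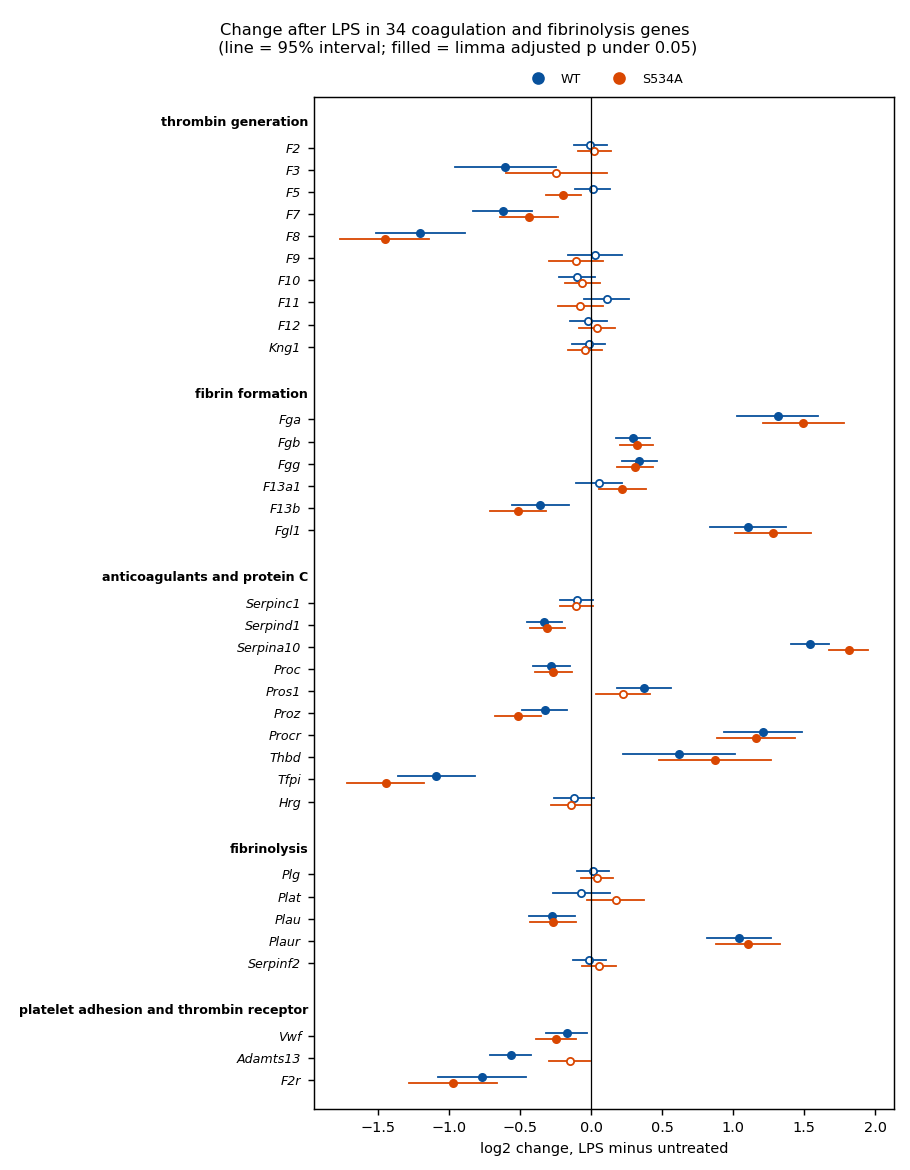
Change in log2 level after LPS for each of the 34 genes tested, grouped by role, in WT and in S534A (4 arrays per group; the line is the 95% interval of the limma fit, and filled points have an adjusted p under 0.05). Serpina10 had the largest rise in both genotypes, 1.54 and 1.81, and F8 and Tfpi the largest falls.

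Markers of other liver cells moved in the same arrays. The marker counts below stand beside 14.9% of all genes higher and 29.9% lower in WT, and 14.2% and 31.2% in S534A. Of 10 markers of sinusoidal endothelium, 9 were lower and 1 higher after LPS in WT and in S534A. Their mean log2 level ran from 9.78 to 9.93 over untreated WT arrays and from 8.23 to 8.66 after LPS, and in S534A from 9.77 to 9.95 and from 8.09 to 8.44. Among stellate and fibroblast markers, 6 of 9 fell and none rose in WT (mean level 8.71 to 8.74 untreated and 7.99 to 8.22 after LPS), and the same counts held in S534A (8.70 to 8.84 and 7.93 to 8.15). All 7 neutrophil markers rose in both genotypes (in WT, mean 5.50 to 5.57 untreated and 7.46 to 8.23 after LPS). Platelet markers rose in 2 of 5 cases in WT and 4 of 5 in S534A, and none fell (in WT, mean 6.65 to 6.84 untreated and 6.98 to 7.05 after LPS). Of 8 Kupffer cell markers, 5 fell and 1 rose in each genotype, and of 4 other endothelial markers 2 rose and 2 fell in WT. Monocyte markers were mixed: of 3 tested, 1 rose and 1 fell in each genotype. Ly6c2 and Ccr2, also on that list, were not tested. The mean of 9 hepatocyte markers was 13.45 to 13.60 untreated and 13.59 to 13.66 after LPS in WT, with 2 higher and none lower; array medians over all probe sets were 6.25 to 6.42. The falls of F8, Tfpi and Vwf (endothelium) and Adamts13 (stellate cells) and the rises of Procr and Thbd (endothelium), Plaur (myeloid cells) and F13a1 (macrophages and platelets) described below stand beside these shifts, whose part in them was not tested. In whole liver, fewer cells of a type and less RNA per cell cannot be told apart. Array values have no true 0, so none of these markers can be called absent.

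All 3 fibrinogen chains and the fibrinogen-like Fgl1 rose after LPS in both genotypes, Fga and Fgl1 by more than 2-fold and Fgb and Fgg by about 1.2-fold, while 1 of the 2 factor XIII subunits fell. Fga, the alpha chain, had log2 levels of 11.80, 11.23, 11.90 and 11.56 in untreated WT and 12.87, 12.98, 12.92 and 12.97 after LPS. In S534A the levels were 11.34, 11.24, 11.84 and 11.44 untreated and 13.090, 13.001, 12.885 and 12.857 after LPS. Every LPS array lay above every untreated one, and the untreated arrays were the more scattered. WT arrays gained 1.31 ± 0.14, or 2.48-fold (limma adjusted p = 5.91e-07). S534A arrays gained 1.49 ± 0.14, or 2.82-fold (adjusted p = 1.25e-07). A second probe set of Fga rose by 2.24 ± 0.22 and 2.61 ± 0.22, so the size of the Fga change depends on the probe set.

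Fgb, the beta chain, measured 13.52, 13.50, 13.56 and 13.52 in untreated WT and 13.85, 13.82, 13.81 and 13.80 after LPS. In S534A it measured 13.55, 13.47, 13.59 and 13.47, and 13.91, 13.79, 13.88 and 13.77 after LPS. The groups stood apart in both genotypes, and the difference was 0.30 ± 0.06 in WT, or 1.23-fold (limma adjusted p = 0.000341). For S534A it was 0.32 ± 0.06, or 1.25-fold (adjusted p = 0.000164). The gamma chain, Fgg, was at 13.63, 13.54, 13.68 and 13.67 in untreated WT and 13.95, 13.94, 13.99 and 13.99 after LPS, a difference of 0.34 ± 0.06 (1.26-fold, adjusted p = 0.000143). In S534A it was at 13.67, 13.60, 13.72 and 13.62, and at 14.05, 13.92, 13.96 and 13.91 after LPS, 0.31 ± 0.06 higher (adjusted p = 0.000337). No LPS array of Fgg came down to the level of an untreated one. The highest value of any probe set on an array was 14.37 to 14.54, so Fgb and Fgg lay near the top of the scale, and whether this limited their measured change was not tested.

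Fgl1, a fibrinogen-like protein secreted by hepatocytes, had levels of 12.01, 11.41, 12.05 and 11.67 in untreated WT and 12.91, 12.85, 12.88 and 12.91 after LPS. Untreated S534A arrays read 11.65, 11.34, 11.87 and 11.72, and those after LPS 13.02, 12.92, 12.89 and 12.86. The groups did not overlap, and the 4 LPS arrays of each genotype lay much closer together than the untreated ones. WT had a rise of 1.10 ± 0.13, or 2.15-fold (limma adjusted p = 1.82e-06), and S534A one of 1.28 ± 0.13, or 2.43-fold (adjusted p = 3.24e-07).

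The 2 subunits of factor XIII, which cross-links fibrin, did not move together. F13b, the carrier subunit made in the liver, had levels of 11.35, 11.45, 11.30 and 11.57 in untreated WT and 11.21, 11.03, 11.17 and 10.82 after LPS, and in S534A of 11.73, 11.58, 11.44 and 11.52 and 11.05, 10.90, 11.13 and 11.13. It was lower in every LPS array, with changes of −0.36 ± 0.09 in WT (limma adjusted p = 0.00482) and −0.52 ± 0.09 for S534A (adjusted p = 0.000234). F13a1, the catalytic subunit, found in macrophages and platelets, was below the median of every array. Its WT values of 5.89, 5.69, 5.69 and 5.48 untreated and 5.81, 5.78, 5.68 and 5.70 after LPS overlapped (difference 0.05 ± 0.08, adjusted p = 0.636). In S534A the values were 5.48, 5.52, 5.69 and 5.57 untreated and 5.80, 5.76, 5.80 and 5.76 after LPS, without overlap, and the rise of 0.22 ± 0.08 passed (adjusted p = 0.0286). That call was lost after median centring (0.12, adjusted p = 0.165) or a second quantile normalization (0.13, adjusted p = 0.156), and without untreated S534A array 1, 2 or 4 or S534A LPS array 1 or 3 (adjusted p from 0.0542 to 0.0857).

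**Figure D2:**
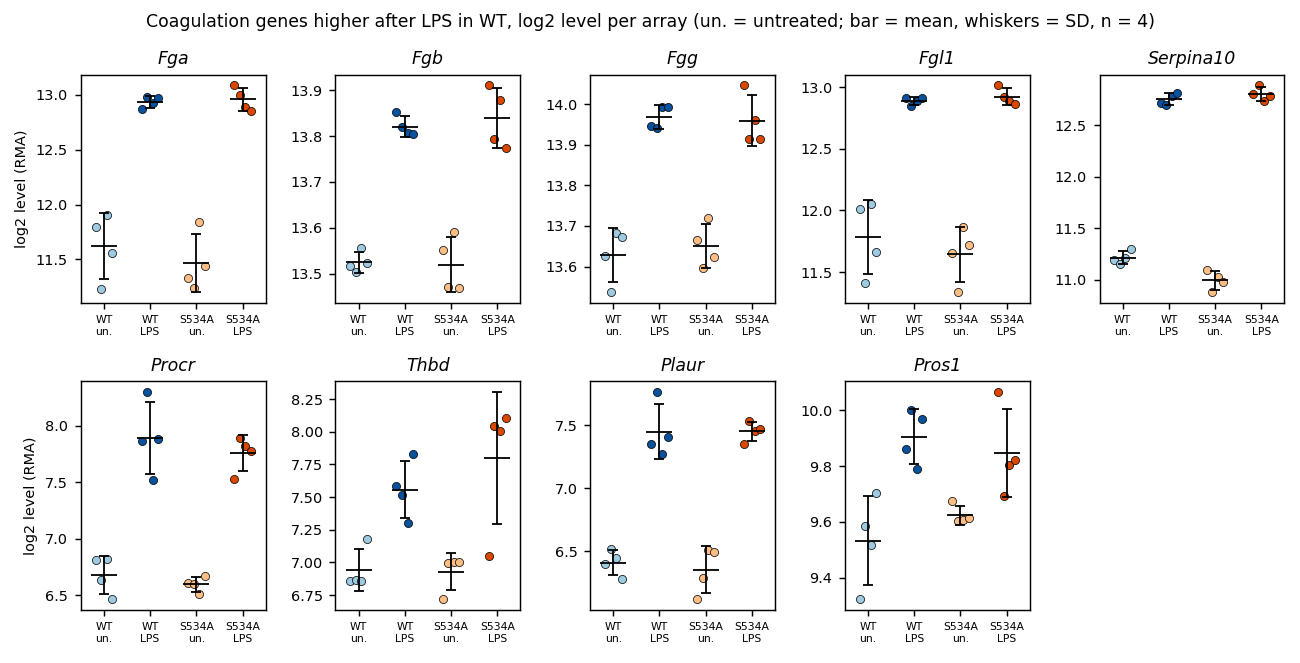
Log2 level of the 9 genes that were higher after LPS in WT, 1 point per array and 4 arrays per group, with the group mean as a bar and the SD as whiskers. Untreated and LPS arrays of the same genotype do not overlap for any of the 9, although the rise of Pros1 in S534A, 0.22, had an adjusted p of 0.0513. The 9 were chosen by their WT call on these arrays, so their separation in WT is no further support. The share of all genes without overlap was not counted.

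Among the anticoagulants, 4 of 10 rose in WT and 4 fell, and in S534A 3 rose and 4 fell. The shares higher were 40% and 30%, beside 14.9% and 14.2% of all genes. The share lower was 40% in each genotype, beside 29.9% and 31.2% of all genes. Serpina10, the protein Z-dependent inhibitor of factor Xa, had levels of 11.19, 11.15, 11.21 and 11.30 in untreated WT and 12.72, 12.69, 12.79 and 12.81 after LPS. In S534A it had 11.09, 10.87, 11.03 and 10.98 untreated and 12.81, 12.89, 12.74 and 12.79 after LPS. The gap between untreated and LPS arrays was many times the spread within any group. Serpina10 rose by 1.54 ± 0.06 in WT, 2.91-fold, with a limma adjusted p of 5.96e-12. The S534A rise was 1.81 ± 0.06, 3.51-fold, with an adjusted p of 6.76e-13; both p-values were the lowest of the 34 genes. Proz, protein Z itself, the cofactor through which that inhibitor acts, went the other way. It had 11.40, 11.25, 11.45 and 11.50 in untreated WT and 11.11, 11.18, 10.93 and 11.07 after LPS, and 11.54, 11.45, 11.54 and 11.52 and 10.86, 10.99, 11.03 and 11.12 in S534A. Every LPS array was lower, with mean changes of −0.33 ± 0.08 in WT (limma adjusted p = 0.00173) and −0.52 ± 0.08 for S534A (adjusted p = 2.66e-05).

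The membrane receptors of the protein C system rose, while protein C fell. Procr, the endothelial protein C receptor, read 6.81, 6.64, 6.82 and 6.47 in untreated WT and 7.86, 8.30, 7.52 and 7.89 after LPS. In S534A it read 6.61, 6.60, 6.51 and 6.67 untreated and 7.53, 7.89, 7.82 and 7.78 after LPS. LPS arrays were all above untreated ones, by 1.21 ± 0.13 or 2.31-fold in WT (limma adjusted p = 9.86e-07) and by 1.16 ± 0.13 or 2.23-fold for S534A (adjusted p = 1.54e-06). Thbd, thrombomodulin, which turns thrombin into an activator of protein C, was at 6.85, 6.86, 6.86 and 7.18 in untreated WT and 7.58, 7.52, 7.30 and 7.83 after LPS. In S534A it was at 6.719, 6.998, 7.002 and 7.001 untreated and 7.046, 8.047, 8.005 and 8.106 after LPS, where array 1 stood well below the other 3. The groups still did not overlap, and the WT rise was 0.62 ± 0.19 (limma adjusted p = 0.0113) and the S534A rise 0.87 ± 0.19 (adjusted p = 0.000912). Without S534A LPS array 1 the S534A rise was 1.12 ± 0.12 (adjusted p = 1.3e-06). That array held the lowest LPS value and was picked after the values were seen, so a larger rise was fixed in advance and is no test.

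Proc, protein C, fell from 12.16, 12.26, 12.26 and 12.32 to 12.02, 11.90, 11.98 and 11.97 in WT and from 12.16, 12.22, 12.23 and 12.27 to 11.85, 12.04, 11.97 and 11.95 in S534A. The groups did not overlap, and the changes were small, −0.28 ± 0.06 (limma adjusted p = 0.00115) and −0.27 ± 0.06 (adjusted p = 0.00164). Pros1, protein S, the cofactor of activated protein C, rose in WT from 9.32, 9.59, 9.52 and 9.70 to 9.86, 10.00, 9.79 and 9.97, by 0.37 ± 0.09 (adjusted p = 0.00237). In S534A the values were 9.67, 9.60, 9.61 and 9.61 untreated and 10.07, 9.69, 9.80 and 9.82 after LPS, which did not overlap either, and the difference of 0.22 ± 0.09 had an adjusted p of 0.0513. The interaction, the LPS change in S534A minus that in WT, was −0.15 ± 0.13 (adjusted p = 0.951).

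Tfpi, the inhibitor of the factor VIIa and tissue factor complex, fell by more than 2-fold. It was at 7.85, 7.44, 8.06 and 7.92 in untreated WT and 6.72, 7.01, 6.46 and 6.71 after LPS. The S534A arrays were at 7.88, 7.73, 8.11 and 7.88 untreated and 6.36, 6.38, 6.52 and 6.54 after LPS. No LPS array reached the lowest untreated one, and the WT change was −1.09 ± 0.13, a 2.13-fold fall (limma adjusted p = 2.49e-06). The S534A change was −1.45 ± 0.13, a 2.73-fold fall (adjusted p = 9.53e-08). Serpind1, heparin cofactor II, fell from 13.01, 12.90, 13.02 and 12.97 to 12.69, 12.54, 12.66 and 12.68 in WT and from 12.984, 12.962, 12.998 and 12.990 to 12.74, 12.61, 12.68 and 12.66 in S534A. These groups did not overlap, and the changes were −0.33 ± 0.06 (adjusted p = 0.000155) and −0.31 ± 0.06 (adjusted p = 0.000277). Serpinc1, antithrombin, did not pass the threshold, with −0.10 ± 0.05 in WT (adjusted p = 0.149) and −0.11 ± 0.05 for S534A (adjusted p = 0.129). Hrg, histidine-rich glycoprotein, did not pass it either (−0.12 ± 0.07 and −0.14 ± 0.07). Both passed as lower after median centring, at −0.21 and −0.22 in WT and −0.20 and −0.24 in S534A. With the trend and robust options of eBayes, Serpinc1 passed in both genotypes (limma adjusted p = 0.0314 in WT and 0.0257 in S534A) and Hrg in S534A (0.0345). In S534A Serpinc1 also passed after a second quantile normalization (0.0374) and with array quality weights (0.0394). Of 28 alternatives, Serpinc1 thus passed in 2 in WT and 4 in S534A, and Hrg in 1 and 2.

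Of 10 genes of thrombin generation, none rose and 3 fell in each genotype: F8, F7 and F3 in WT, and F8, F7 and F5 in S534A. That is 30% of the group, beside 29.9% and 31.2% of all genes called lower. F8, the cofactor of factor IXa, had levels of 9.81, 9.81, 9.81 and 9.88 in untreated WT and 8.80, 9.12, 8.28 and 8.29 after LPS. In S534A it had 10.07, 10.02, 9.95 and 9.95 untreated and 8.69, 8.29, 8.48 and 8.72 after LPS. The untreated arrays were tight and the LPS arrays more spread, with no overlap. F8 changed by −1.20 ± 0.15 in WT, a 2.31-fold fall (limma adjusted p = 4.12e-06). The change in S534A was −1.45 ± 0.15, a 2.74-fold fall (adjusted p = 4.82e-07).

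F7, the protease that tissue factor binds, was at 10.62, 10.65, 10.50 and 10.76 in untreated WT and 9.80, 10.27, 9.87 and 10.08 after LPS. In S534A the values were 10.61, 10.47, 10.52 and 10.58 and 10.28, 10.08, 10.03 and 10.02. All LPS arrays were lower, and the WT change was −0.63 ± 0.10, a 1.54-fold fall (limma adjusted p = 4.82e-05). The S534A change was −0.44 ± 0.10, a 1.36-fold fall (adjusted p = 0.00116). F3, tissue factor, the membrane protein that starts the cascade, was at 7.01, 7.48, 7.15 and 7.83 in untreated WT and 7.06, 6.72, 6.61 and 6.65 after LPS. S534A arrays had F3 at 7.49, 7.53, 7.13 and 7.25 untreated and 7.03, 6.77, 7.25 and 7.37 after LPS. The F3 groups overlapped in both genotypes: untreated WT array 1 lay below WT LPS array 1, and S534A LPS arrays 3 and 4 lay above the lowest untreated S534A array. The fitted change was −0.61 ± 0.17 in WT (limma adjusted p = 0.00684), and −0.25 ± 0.17 for S534A (adjusted p = 0.252), with an interaction of 0.36 ± 0.24 (adjusted p = 0.951).

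F5, the cofactor of factor Xa, was at 11.69, 11.77, 11.83 and 11.92 in untreated WT and 11.85, 11.78, 11.78 and 11.83 after LPS, which overlapped (0.01 ± 0.06, adjusted p = 0.913). In S534A it was at 12.01, 12.05, 12.03 and 12.00 untreated and 11.82, 11.84, 11.82 and 11.82 after LPS, a change of −0.20 ± 0.06 without overlap (limma adjusted p = 0.00991). The LPS arrays of both genotypes lay at the same level, and the untreated S534A arrays were the high ones. The remaining proteases and kininogen did not pass: F2 (prothrombin) changed by −0.01 ± 0.05 in WT, F9 by 0.02 ± 0.09, F10 by −0.10 ± 0.06, F11 by 0.11 ± 0.08, F12 by −0.02 ± 0.06 and Kng1 by −0.02 ± 0.06. Over the 11 genes that passed in neither genotype, changes ran from −0.12 to 0.11 in WT with 95% intervals within −0.27 to 0.27, and from −0.14 to 0.17 in S534A with intervals within −0.30 to 0.37.

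Neighbouring genes differed. In RefSeq's order of genes, Fgg, Fga and Fgb lie side by side on chromosome 3, flanked by Lrat, which fell by 1.55 ± 0.18 in WT (limma adjusted p = 1.6e-06), and Plrg1, which rose by 0.60 ± 0.08 (adjusted p = 5.15e-06). On chromosome 8, F7, F10 and Proz are adjacent, and F10, in the middle, had a change of −0.10 ± 0.06 in WT while both neighbours fell. After median centring F10 passed as lower too, so this contrast depends on the scaling. Hrg and Kng1 lie on chromosome 16 on either side of Kng2, a kininogen gene, which rose by 0.22 ± 0.07 in WT (adjusted p = 0.0153). F11 stands next to Klkb1 on chromosome 8.

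In fibrinolysis, 1 of 5 genes, Plaur, rose in each genotype, and the 1 called lower, Plau, was near the expression filter. That is 20% higher and 20% lower in each genotype. Of all genes, 14.9% were higher and 29.9% lower in WT, and 14.2% and 31.2% in S534A. Plaur, the urokinase receptor, was at 6.39, 6.52, 6.45 and 6.28 in untreated WT and 7.35, 7.77, 7.28 and 7.41 after LPS. In S534A the levels were 6.12, 6.29, 6.51 and 6.49 untreated and 7.35, 7.54, 7.46 and 7.47 after LPS. The LPS arrays were all above the untreated ones, by 1.04 ± 0.11 or 2.06-fold in WT (limma adjusted p = 5.31e-07) and by 1.10 ± 0.11 or 2.15-fold for S534A (adjusted p = 2.61e-07). Plau, urokinase itself, was low, below the median of every array, and above the expression filter on all 8 untreated arrays and on none of the 8 LPS arrays. Because it entered the test only through the untreated groups, where it is high, its difference is given as a description: without it, 9 of 33 genes were higher and 11 lower in WT, and 9 and 10 in S534A. Its values were lower after LPS, going from 5.42, 5.43, 5.60 and 5.64 to 5.37, 5.05, 5.28 and 5.28 in WT (−0.28 ± 0.08) and from 5.54, 5.61, 5.51 and 5.61 to 5.34, 5.35, 5.27 and 5.23 in S534A (−0.27 ± 0.08), without overlap. Plat, tissue plasminogen activator, was also below the median of every array and had −0.07 ± 0.09 in WT and 0.17 ± 0.09 in S534A. Plg, plasminogen, and Serpinf2, its antiplasmin, had 0.01 ± 0.05 and −0.01 ± 0.06 in WT and 0.04 ± 0.05 and 0.05 ± 0.06 in S534A, none of them past the threshold.

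The 3 genes of platelet adhesion and thrombin sensing fell in WT, and 2 of them in S534A. Of all genes, 29.9% were called lower in WT and 31.2% in S534A. F2r, the thrombin receptor PAR1, was at 9.80, 9.39, 9.24 and 9.44 in untreated WT and 8.80, 8.73, 8.64 and 8.63 after LPS. In S534A the levels were 9.64, 9.52, 9.56 and 9.62 untreated and 8.29, 8.29, 9.02 and 8.85 after LPS. There was no overlap, and F2r changed by −0.77 ± 0.15 in WT, a 1.71-fold fall (limma adjusted p = 0.000361). The change in S534A was −0.97 ± 0.15, a 1.96-fold fall (adjusted p = 3.73e-05). Adamts13, the protease that trims von Willebrand factor and is made by stellate cells, was at 7.23, 7.34, 7.52 and 7.40 in untreated WT and 6.85, 6.68, 6.84 and 6.85 after LPS, a change of −0.57 ± 0.07 (a 1.48-fold fall, limma adjusted p = 3.49e-06). In S534A it was at 7.12, 7.09, 7.07 and 7.15 untreated and 6.98, 6.94, 7.02 and 6.87 after LPS, a difference of −0.15 ± 0.07 (adjusted p = 0.0833) without overlap. After median centring this S534A difference passed (−0.25, adjusted p = 0.00715), and after a second quantile normalization too (−0.19, adjusted p = 0.0338).

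Vwf, von Willebrand factor, was at 7.46, 7.39, 7.34 and 7.47 in untreated WT and 7.22, 7.27, 7.26 and 7.20 after LPS. S534A had 7.51, 7.35, 7.33 and 7.40 untreated and 7.117, 7.002, 7.228 and 7.249 after LPS. The groups were close together but did not overlap, and the changes were −0.17 ± 0.07 in WT (limma adjusted p = 0.0431) and −0.25 ± 0.07 for S534A (adjusted p = 0.00578). The WT call of Vwf (adjusted p up to 0.0987) was lost in 13 of 28 alternatives, among them leaving out any of untreated WT arrays 1, 2 and 4, WT LPS arrays 1, 3 and 4 and untreated S534A arrays 2 and 4.

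**Figure D3:**
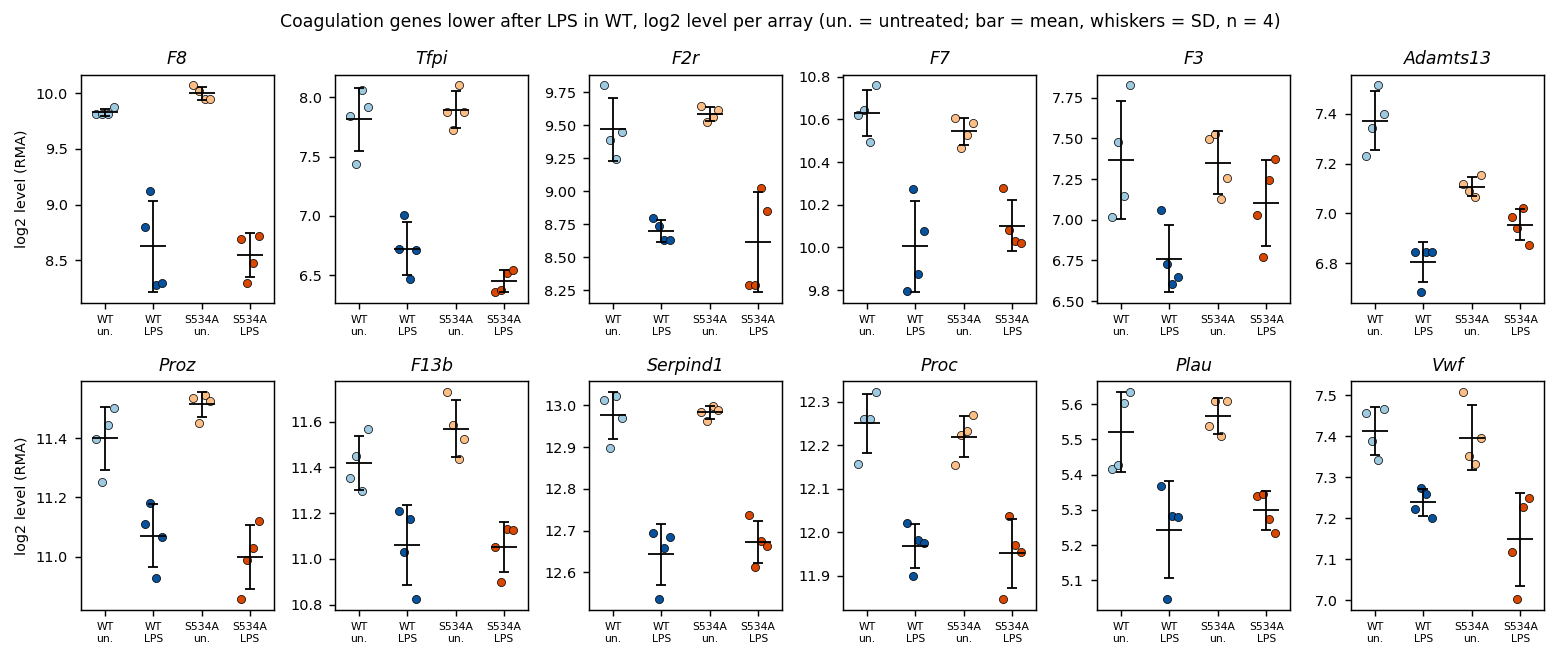
Log2 level of the 12 genes that were lower after LPS in WT, 1 point per array and 4 arrays per group, with the group mean as a bar and the SD as whiskers. F8, Tfpi and F2r show the wide gaps, and F3 is the gene whose untreated and LPS arrays overlap. The 12 were chosen by their WT call on these arrays, so separation in WT is no further support. Plau is 1 of the 12 and passed the expression filter only through the untreated arrays.

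The other haemostasis genes, a list of 36 fixed beside the main one, had 29 tested. In WT 8 rose and 8 fell, and in S534A 10 rose and 7 fell. The shares higher were 27.6% and 34.5%, beside 14.9% and 14.2% of all genes, and the shares lower 27.6% and 24.1%, beside 29.9% and 31.2%. All 3 genes of the vitamin K cycle, on which the gamma-carboxylation of factors II, VII, IX and X and of proteins C, S and Z depends, fell. Vkorc1, the epoxide reductase, changed by −0.52 ± 0.06 in WT (limma adjusted p = 1.87e-06) and −0.39 ± 0.06 in S534A. Its paralog Vkorc1l1 changed by −0.47 ± 0.09 and −0.45 ± 0.09, and Ggcx, the carboxylase, by −0.23 ± 0.07 and −0.47 ± 0.07. Of 5 receptors that clear clotting proteins, 4 were lower in WT and 3 in S534A. Lrp1 did not pass in either (0.14 ± 0.06 in WT and −0.05 ± 0.06 in S534A), and Asgr2, the fourth in WT (−0.22 ± 0.07), did not pass in S534A (−0.11 ± 0.07). Stab2, a scavenger receptor of sinusoidal endothelium and also one of the markers above, changed by −1.25 ± 0.14 in WT and −1.38 ± 0.14 in S534A. Stab1 changed by −0.67 ± 0.10 and −0.73 ± 0.10, and Asgr1, an asialoglycoprotein receptor subunit, by −0.36 ± 0.07 and −0.26 ± 0.07.

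A2m, a broad protease inhibitor, had the largest rise in the list, 5.51 ± 0.13 in WT (limma adjusted p = 3.59e-15) and 5.50 ± 0.13 in S534A. Thbs1, thrombospondin 1, rose by 2.45 ± 0.08 in WT and 2.35 ± 0.08 in S534A, and Fgl2, a prothrombinase of immune and endothelial cells, by 0.81 ± 0.14 and 0.58 ± 0.14. The plasminogen receptor Plgrkt rose by 1.14 ± 0.17 in WT and 1.04 ± 0.17 in S534A, and Serpina5, an inhibitor of activated protein C, by 0.62 ± 0.14 and 0.70 ± 0.14. Of 7 platelet genes tested, 3 rose and 1 fell in WT, and 5 rose and 1 fell in S534A. That is 42.9% and 14.3% in WT and 71.4% and 14.3% in S534A, beside the shares of all genes given above. The 5 platelet markers counted earlier (Pf4, Ppbp, Itga2b, Gp9 and Gp5) are all among these 7, so the counts are not separate observations. Itgb3 rose by 0.97 ± 0.11 in WT, Ppbp by 0.75 ± 0.16 and Gp9 by 0.34 ± 0.10. P2ry12, an ADP receptor that is not among the platelet markers above, changed by −0.32 ± 0.10 in WT (adjusted p = 0.0154) and −0.31 ± 0.10 in S534A. Neither of the 2 secretion receptors for factors V and VIII, Lman1 and Mcfd2, passed the threshold, nor did F2rl2 or F2rl3, 2 other protease-activated receptors.

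Between S534A and WT livers, none of the 34 genes passed the limma threshold of 0.05 after LPS, untreated or for the size of the LPS change. After LPS the background over all genes was 0% higher and 0% lower, and untreated it was 0.00629% in each direction, or 1 gene each. For the interaction it was 0% in each direction. At an unadjusted p under 0.05, limma gave 2 of the 34 after LPS (3% of all genes), 4 untreated (8.88% of all) and 3 for the interaction (4.82% of all).

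After LPS the largest difference was in F3, 0.34 ± 0.17 (95% interval −0.01 to 0.70). Over the 34 genes the 95% intervals of that comparison lay within −0.55 to 0.70, untreated within −0.44 to 0.48, and for the interaction within −0.74 to 0.86. Differences of that size are therefore not shown to be absent. The median standard error over all genes was 0.099, and 0.140 for the interaction.

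Adamts13 had the largest interaction, 0.42 ± 0.10 (95% interval 0.21 to 0.62, unadjusted p = 0.000569, limma adjusted p = 0.898). Its levels, given above, show where it lies: untreated S534A arrays (7.07 to 7.15) were all below untreated WT arrays (7.23 to 7.52), and S534A arrays after LPS (6.87 to 7.02) all above WT arrays after LPS (6.68 to 6.85). The untreated difference was −0.27 ± 0.07 (unadjusted p = 0.00137, adjusted p = 0.223), and the difference after LPS 0.15 ± 0.07 (unadjusted p = 0.044). Serpina10 differed by −0.22 ± 0.06 in untreated S534A (unadjusted p = 0.0038, adjusted p = 0.274), with an interaction of 0.27 ± 0.09 (95% interval 0.08 to 0.47, adjusted p = 0.951). F5 was higher in untreated S534A by 0.22 ± 0.06 (unadjusted p = 0.00141, adjusted p = 0.223), with an interaction of −0.21 ± 0.08 (unadjusted p = 0.0219). The untreated arrays of the 2 genotypes did not overlap for F5 or Serpina10. Adamts13, F5 and Serpina10 were picked here by lowest p, so the separation of their arrays is a description and adds no support. The share of all genes without such overlap was not counted. F11 was higher in untreated S534A by 0.17 ± 0.08 (unadjusted p = 0.0381), and Tfpi differed by −0.28 ± 0.13 after LPS (unadjusted p = 0.0474); neither passed after adjustment.

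**Figure D4:**
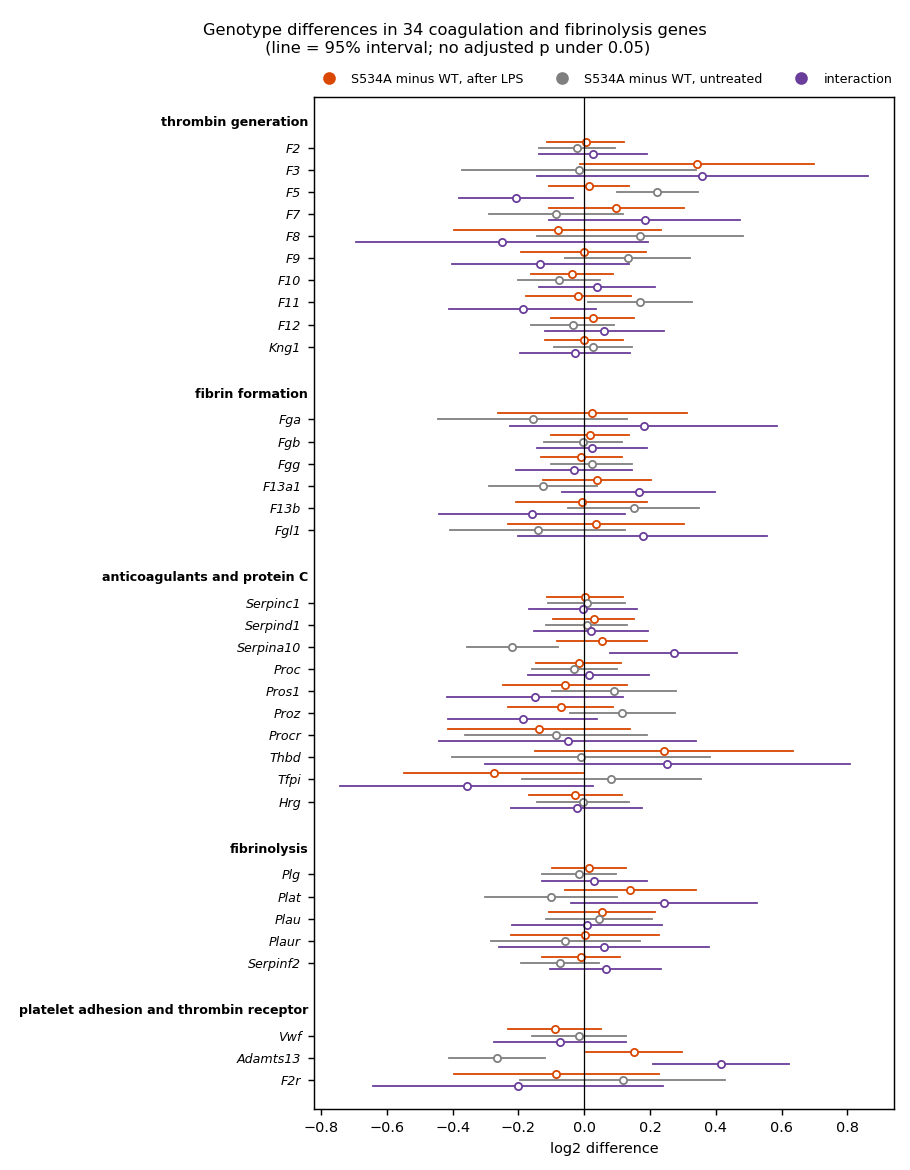
Differences between S534A and WT after LPS and untreated, and the interaction (LPS change in S534A minus that in WT), in log2 units for the 34 genes (4 arrays per group; the line is the 95% interval of the limma fit). Adamts13, at 0.42 for the interaction, lies farthest from 0, and no gene had an adjusted p under 0.05.

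Untreated arrays also differed among themselves in their clock genes. A clock score, the mean log2 level of 5 clock genes (Dbp, Tef and Per1 to Per3) less that of Arntl, ran from −1.77 to 3.47 over untreated WT arrays and from −2.55 to 3.41 over untreated S534A arrays, and from −0.70 to 1.63 over the 8 LPS arrays. It was below 0 in 3 untreated arrays, WT 1 and 3 and S534A 3. These arrays had the 3 highest untreated levels of Fga (11.80, 11.90 and 11.84) and of Fgl1 (12.01, 12.05 and 11.87), and the 3 lowest of F3 (7.01, 7.15 and 7.13); this was chosen after the values were seen and is a description. Without these 3 arrays the rise of Fga was 1.54 ± 0.10 in WT, that of Fgl1 1.35 in WT, and F3 fell by 0.89 ± 0.17. The arrays left out held the untreated WT extremes of these genes, so larger changes were fixed in advance and are no test. With the clock score as a covariate Fga rose by 1.31 ± 0.08 and F3 fell by 0.60 ± 0.11 in WT. Thbd (0.53, adjusted p = 0.0925), Pros1 (0.26, adjusted p = 0.0542) and Vwf (−0.19, adjusted p = 0.0987) no longer passed in WT without the 3 arrays. The part of collection time in the untreated levels was not tested.

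**Figure D5:**
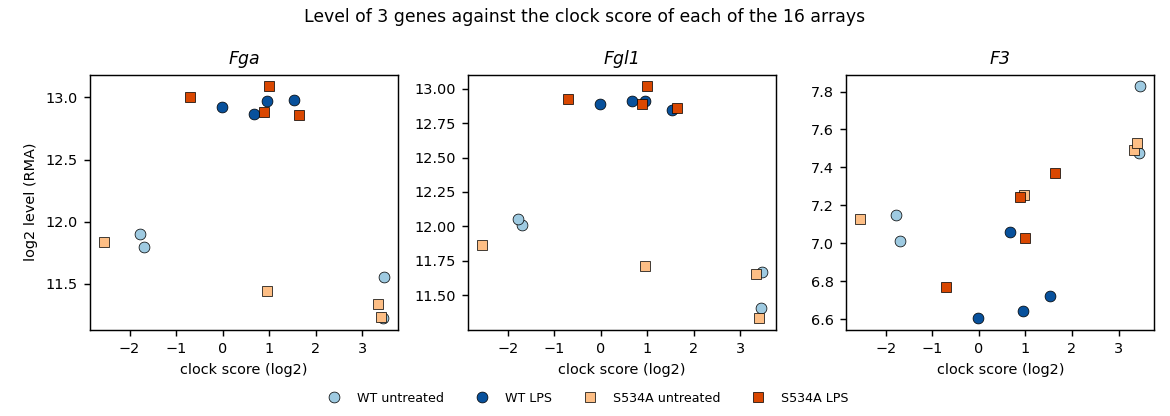
Log2 level of Fga, Fgl1 and F3 (vertical axis) against the clock score of each of the 16 arrays (horizontal axis, log2), coloured by group, 4 arrays per group. The 3 untreated arrays with a score below 0 sit highest among the untreated ones in Fga and Fgl1, and the 8 LPS arrays lie above all untreated arrays in both.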

How the data were processed

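Log2 expression values of 16 liver arrays were used as deposited; RMA is named in the submitters' processing notes, without a version. RMA includes quantile normalization, which is meant to remove a shift common to all genes. The deposited values still had array medians from 6.25 to 6.42. A second quantile normalization moved the median change of all genes after LPS in WT from −0.05 to −0.12. Of 35556 probe sets, 21789 had 1 gene symbol in the platform annotation, 1621 several and 12146 none. Probe sets had to exceed the array's 30th percentile on 4 or more arrays, and the set of highest mean stood for its gene, which left 15908 genes. All 34 genes with a probe set of their own passed, Plau on 8 arrays, Plat on 14 and the rest on 16.

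Groups and replicate numbers came from the sample titles; the series text gives the LPS dose for untreated S534A too, and the titles were followed. The test was limma (version 3.58.1, R version 4.3.3, functions lmFit, contrasts.fit and eBayes) on 4 group means, with 12 residual degrees of freedom, two-sided tests and Benjamini-Hochberg adjustment over all genes, threshold 0.05. Values with ± are log2 changes and standard errors, n = 4 per group. The script was tested on simulated data. Background signal per probe was not assessed. Precision is limited by the number of arrays.

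The genes, lists and tests were chosen with earlier results of these data known. All 36 genes are accounted for, and of the other haemostasis genes those past the threshold after LPS in WT are named, up to 3 per subgroup by lowest p. Motifs were searched in RefSeq promoters (GRCm38.p6) with Python 3.11.15, using the first listed start of a gene, and only the 250 bases before it.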

Additional observations from a re-analysis of the deposited data

Results flagged for a closer look

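In 9 of 136 combinations of gene and group, 1 array stood apart from the other 3 by Dixon's test at the 95% level, where about 1 in 20, or 6.8, would stand apart by chance. Thbd accounts for 3 of the 9. Its S534A LPS array 1 was at 7.05, beside 8.005 to 8.11 in the others, its untreated WT array 4 at 7.18 beside 6.85 to 6.86, and its untreated S534A array 1 at 6.72 beside 6.998 to 7.002. For Adamts13, WT LPS array 2 was at 6.68 beside 6.84 to 6.85. F8 was at 9.88 on untreated WT array 4, beside 9.81 on the others, and Pros1 at 9.67 on untreated S534A array 1, beside 9.60 to 9.61. The other 3 were all among S534A LPS arrays: F5 at 11.84 on array 2 beside 11.82, F10 at 11.48 on array 4 beside 11.33 to 11.34, and Plg at 13.48 on array 1 beside 13.40.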

How the results depend on the processing

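No gene called after LPS changed direction under any alternative run. In WT 18 of 21 calls held under every alternative in which the gene was tested, the exceptions being Pros1, Thbd and Vwf. In S534A 19 of 20 held, the exception being F13a1. These counts include Plau, which entered the test only through the untreated arrays. With the expression filter set at the array median, only 31 of the 34 genes were tested, and Plau was not among them. That run called 11 genes lower in WT and 10 in S534A. Uncalled genes that passed in at least 1 alternative numbered 3 in WT and 6 in S534A, where Pros1 passed in 10. Leaving out each array in turn gave 9 higher and 11 to 12 lower in WT, and 8 to 10 higher and 11 lower in S534A, with 0 genes called in every genotype comparison. With array quality weights, which put untreated S534A array 4 at 3.47 and WT LPS array 2 at 0.25, 1 gene was higher (F5, adjusted p = 0.0303) and 1 lower (Adamts13, adjusted p = 0.0472) in untreated S534A, against 0 and 0; the cause was not tested. Over all genes these weights took the untreated comparison from 1 higher and 1 lower to 215 and 155, and the higher genes after LPS in S534A from 2258 to 3399. The interaction of Adamts13 ran from 0.37 to 0.46 over the alternatives, with adjusted p from 0.188 to 1.00. Deviations of same-numbered arrays from their group means correlated from −0.49 to 0.59, and 9 of 24 pairs were over 0.1. Arrays of different numbers correlated from −0.59 to 0.57, with 21 of 72 pairs over 0.1. With ranges this alike, these values do not settle whether the replicate numbers pair the samples. With the replicate number as a block, 9 genes were higher and 11 lower in WT (Vwf, adjusted p = 0.0622) and 9 and 11 in S534A. At the 0.01 threshold Thbd and Vwf (WT) and F13a1 (S534A) were not called. The interaction was not run on only the groups compared, since it needs all 4.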
